A study of Mus musculus with 80 samples.

Results

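The Ier, Btg and Klf early-response genes were followed through every preparation of the series as 9 genes: the immediate early response genes Ier2, Ier3 and Ier5, the B-cell translocation genes Btg1 and Btg2, and the Krüppel-like factors Klf2, Klf4, Klf6 and Klf10. They were taken by gene symbol, with no cut on a measured value, though earlier results of these data were known when they were chosen. They are 9 of the 15919 genes listed for the comparison of sort methods and 9 of the 16000 listed for the comparison of cell preparations. All mice carried Cx3cr1(Jung)-cre/Ert2+;NuTRAP+ and received tamoxifen at about 3 months of age (100 mg/kg body weight, daily), so that cells expressing Cx3cr1 made ribosomes tagged with eGFP, and brains were taken at 5 to 8 months of age. No group lacked the Cre, the NuTRAP allele or tamoxifen, and Cx3cr1 drives the Cre in macrophages of the brain borders as well as in microglia. From each preparation, RNA pulled down with the tagged ribosomes (translating ribosome affinity purification, TRAP) and the RNA before the pull-down (Input) were sequenced.

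In the sort comparison (48 libraries), brain tissue homogenised directly in a buffer with cycloheximide (Tissue, n = 4) stood beside a cell suspension made with warm, papain-based enzymes and mechanical force (Cell, n = 4). Cells met that buffer only after dissociation. The same kind of suspension was also passed through CD11b magnetic beads (autoMACS, n = 4), cartridge-based FACS (Tyto, n = 5), cytometer-based FACS (FACSAria, n = 4), or beads followed by the cartridge (autoMACS to Tyto, n = 3). In the preparation comparison (32 libraries), second libraries from the mice of Tissue (Tissue2) stood beside enzymatic suspensions made without inhibitors (Cell (-) Inhib), the same with actinomycin D, triptolide and anisomycin present in the enzyme step to block transcription and translation (Cell (+) Inhib), and cells freed by Dounce homogenisation at 4 °C (Dounce), each with n = 4. Tissue and Cell came from the same 4 mice, and both Cell Inhib groups came from another 4. The Cell Inhib groups and the Tissue2 libraries came from different mice, and Dounce cells from other mice than any group they are compared with, so the set of mice and the preparation cannot be told apart in those comparisons.

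Early-response genes are switched on within minutes by growth factors, stress or injury signals through factors that are already present in the cell, such as SRF, CREB, MEF2 and NF-kB, and their mRNAs are short-lived. IER2, IER3 and IER5 are small proteins of unlike function that share this mode of induction. BTG1 and BTG2 restrain proliferation and bind the CCR4-NOT complex, which shortens the poly(A) tails of mRNAs. The Krüppel-like factors bind GC-rich and CACCC elements through zinc fingers. In microglia, which sense damage, a rise of such genes during isolation is a known concern when the cells are taken from the brain.

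The promoters of 4 members are shown for the different recognised elements they hold within a short distance of the start, among them the Btg pair, which moved by unlike amounts below. Each run gives the 250 bases before the RefSeq start, 5′ to 3′ on the gene's own strand (build GRCm38.p6), with matches to the cAMP response, MEF2, NF-kB and TATA elements in capitals and matches to the GC box and CACCC left in lower case. Btg2 lies on the minus strand and its window is chr1:134079156-134079405. Klf2 lies on the plus strand, at chr8:72318812-72319061. Ier3 lies on the plus strand, at chr17:35821463-35821712. Btg1 lies on the plus strand, at chr10:96616751-96617000.
Btg2: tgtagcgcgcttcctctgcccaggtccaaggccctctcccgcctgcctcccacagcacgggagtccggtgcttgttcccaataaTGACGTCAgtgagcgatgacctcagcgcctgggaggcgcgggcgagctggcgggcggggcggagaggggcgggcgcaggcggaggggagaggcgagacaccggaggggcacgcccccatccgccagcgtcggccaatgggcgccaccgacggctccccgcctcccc
Klf2: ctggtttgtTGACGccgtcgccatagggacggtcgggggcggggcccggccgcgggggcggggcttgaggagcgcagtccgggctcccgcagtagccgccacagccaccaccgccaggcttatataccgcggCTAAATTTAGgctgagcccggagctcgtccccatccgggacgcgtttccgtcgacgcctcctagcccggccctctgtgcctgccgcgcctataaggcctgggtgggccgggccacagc
Ier3: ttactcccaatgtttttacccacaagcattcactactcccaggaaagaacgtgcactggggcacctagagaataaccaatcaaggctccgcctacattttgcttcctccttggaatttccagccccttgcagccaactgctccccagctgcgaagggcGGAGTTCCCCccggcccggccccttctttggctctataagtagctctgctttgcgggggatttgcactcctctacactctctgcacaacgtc
Btg1: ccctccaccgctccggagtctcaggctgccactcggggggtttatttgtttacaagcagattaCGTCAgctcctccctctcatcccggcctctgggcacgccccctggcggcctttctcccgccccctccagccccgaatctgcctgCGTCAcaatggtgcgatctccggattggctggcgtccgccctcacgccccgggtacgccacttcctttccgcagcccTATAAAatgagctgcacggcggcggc

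In the Btg2 promoter the capitals mark a whole cAMP response element (CRE), TGACGTCA, 166 to 159 bases before the start. In Klf2 they mark the core of that element, TGACG, 241 to 237 bases before the start, and a MEF2 match 118 to 109 bases before it. In Ier3 they mark an NF-kB match 92 to 83 bases before the start, which shares bases with a GC box. In Btg1 they mark the CRE core on the other strand, 187 to 183 and 103 to 99 bases before the start, and a TATA box, TATAAA, 26 to 21 bases before it. Windows were found for 7 of the 9 members, without Ier2 and Klf10. Both strands were searched over the 250 bases before and 50 bases after the start of 32851 RefSeq windows. The whole CRE was in 1.79% of these windows and in 1 of the 7 members, and the CRE core, which every whole CRE contains, in 20.8% and in 4 of 7 (Btg1, Btg2, Klf2 and Klf4). The MEF2 match was in 3.19% of windows and in Klf2 alone of the 7, the NF-kB match in 8.46% and in Ier3 alone, and TATAAA in 13.6% and in Btg1 alone. The GC box, GGGCGG, was in 35.7% of windows and in all 7 members, whereas no member window held the SRF-binding CArG box (1.63% of windows) or the AP-1 element TGACTCA (5.2% of windows). CACCC was in 57.5% of windows and in Klf2 alone of the 7. These are matches of letters in a window and not bound sites.

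Sequencing depth was 2471448 to 14650287 counts in the TRAP libraries of the preparation comparison, lowest in Dounce-TRAP (2471448 to 4724538), and 11795698 to 20168116 in the TRAP libraries of the sort comparison. Input libraries held 5107604 to 11262747 counts in the preparation comparison and 7129464 to 18514919 in the sort comparison. The 20 microglial markers summed to 11230 to 17060 CPM (counts scaled to the size of the library) in the TRAP libraries of tissue and 57010 to 80220 in every other TRAP group, against 533 to 792 CPM in the tissue Inputs. Neuronal markers (10 genes) summed to 5766 to 8067 CPM in the tissue TRAP libraries, 1101 to 1950 CPM in Dounce-TRAP and at most 350.5 CPM in the TRAP libraries of enzymatic suspensions and sorted cells. So the labelled microglial fraction carried its markers in every TRAP group, together with neuronal RNA in tissue. All 9 members passed the filter on low counts in every set of libraries.

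Enzymatic dissociation was compared with direct homogenisation in the ribosome-bound RNA first. In Cell (-) Inhib-TRAP, 8 of the 9 members were higher than in Tissue2-TRAP, at a false discovery rate under 0.1 and more than 2-fold, and the exception was Klf10. Of the 14723 genes tested in this comparison, 22.3% were called higher. The median log2 difference of the 9 members was 3.90, and that of all genes tested was -0.13. Among the 20 microglial markers the median log2 difference was 2.23, and among the 10 neuronal markers it was -5.88, with 10 lower. The 8 members differed in size, from 1.84 for Btg1, which turned negative when libraries were scaled to their microglial markers, to 6.12 for Btg2.

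Among the Ier genes, Ier2 encodes a nuclear protein induced by growth factors, and its 4 Cell (-) Inhib-TRAP libraries read 543, 509, 779 and 919 CPM. Its Tissue2-TRAP libraries read 17.4, 15.7, 13.7 and 10.3 CPM. The groups did not overlap, and the log2 difference was 5.59 ± 0.22 (SE, edgeR adjusted p = 2.32e-13), a 48.1-fold higher level. Ier5, which promotes the activity of the heat shock factor HSF1, read 974, 1089.7, 1419 and 1361 CPM in Cell (-) Inhib-TRAP against 85.9, 64.1, 71.6 and 61.7 CPM in Tissue2-TRAP. Its log2 difference was 4.10 ± 0.15 (edgeR adjusted p = 7.74e-14). Ier3, a stress-induced regulator of cell death and a target of NF-kB, had libraries of 109, 77, 139.9 and 158 CPM against 11.1, 9.34, 9.23 and 6.83 CPM, again without overlap. Its log2 difference was 3.73 ± 0.22 (edgeR adjusted p = 2.09e-11), a 13.3-fold higher level beside 17.1-fold for Ier5.

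The Btg pair separated. Btg2, a target of p53, read 1522, 1812, 2249 and 2928 CPM in Cell (-) Inhib-TRAP, a mean of 2128 ± 611 CPM (SD, n = 4). In Tissue2-TRAP it read 29.8, 31.9, 31.2 and 29.8 CPM, and the log2 difference of 6.12 ± 0.21 (edgeR adjusted p = 4.02e-14) placed it 20th of all genes tested. Btg1, its close relative, read 334, 392, 402 and 413 CPM in Cell (-) Inhib-TRAP. In Tissue2-TRAP, Btg1 read 104, 103, 113 and 110.0 CPM. Per kilobase of exon, Btg1 was the higher of the pair in Tissue2-TRAP (20.4 against 11.2 CPM) and the lower in Cell (-) Inhib-TRAP (73.1 against 776 CPM). The log2 difference of Btg1 was 1.84 ± 0.10 (edgeR adjusted p = 9.4e-12) and turned to -0.36 when libraries were scaled to their 20 microglial markers (microglial scaling).

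Among the Krüppel-like factors, Klf2, known for holding endothelial cells and T cells quiescent and for its induction through ERK5 and MEF2, read 992, 1036, 1259 and 1129 CPM in Cell (-) Inhib-TRAP. Its Tissue2-TRAP libraries read 35.8, 26.6, 32.6 and 18.3 CPM, and the log2 difference was 5.28 ± 0.22 (edgeR adjusted p = 4.16e-13). The 10 endothelial markers were higher as well, with a median log2 difference of 2.35, and their part in the result was not tested. Klf6, itself an immediate-early gene, read 648, 688, 723 and 847 CPM against 51.4, 44.5, 55.5 and 45.9 CPM, with a log2 difference of 3.88 ± 0.12 (edgeR adjusted p = 1.76e-14), the smallest SE of the 4 factors. Klf4, a pluripotency factor that also acts in macrophage polarisation, spread more widely. Its libraries read 165, 162, 211 and 323 CPM against 19.4, 20.04, 11.3 and 7.01 CPM, with a log2 difference of 3.90 ± 0.45 (edgeR adjusted p = 2.49e-07). Klf10, an early gene induced by TGF-beta, read 16.2, 13.4, 24.1 and 30.2 CPM in Cell (-) Inhib-TRAP and 14, 13.2, 9.63 and 13.1 CPM in Tissue2-TRAP, so the groups overlapped. Its log2 difference of 0.74 ± 0.23 (edgeR adjusted p = 0.00659) stayed under the 2-fold limit, and it was -1.45, and called lower, under microglial scaling.

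That scaling sets a member beside the summed counts of the microglial markers, and cannot separate microglial from other counts of the member. A change of sign under it, in TRAP or in Input, need not be a change per microglial mRNA. The share of each member's counts that came from microglia was not tested. The scaling moved the median of all genes in this comparison by -2.20 on the log2 scale. Under it the other 7 members stayed higher in Cell (-) Inhib-TRAP, with log2 differences of 3.39 for Ier2, 1.54 for Ier3, 1.90 for Ier5, 3.92 for Btg2, 3.09 for Klf2, 1.70 for Klf4 and 1.69 for Klf6. In plain levels, Ier2 stood at 9.75 CPM per 1000 CPM of microglial markers in Cell (-) Inhib-TRAP and at 0.928 in Tissue2-TRAP. In bulk libraries such as these, fewer cells of a type and less RNA per cell cannot be told apart.

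**Figure D1:**
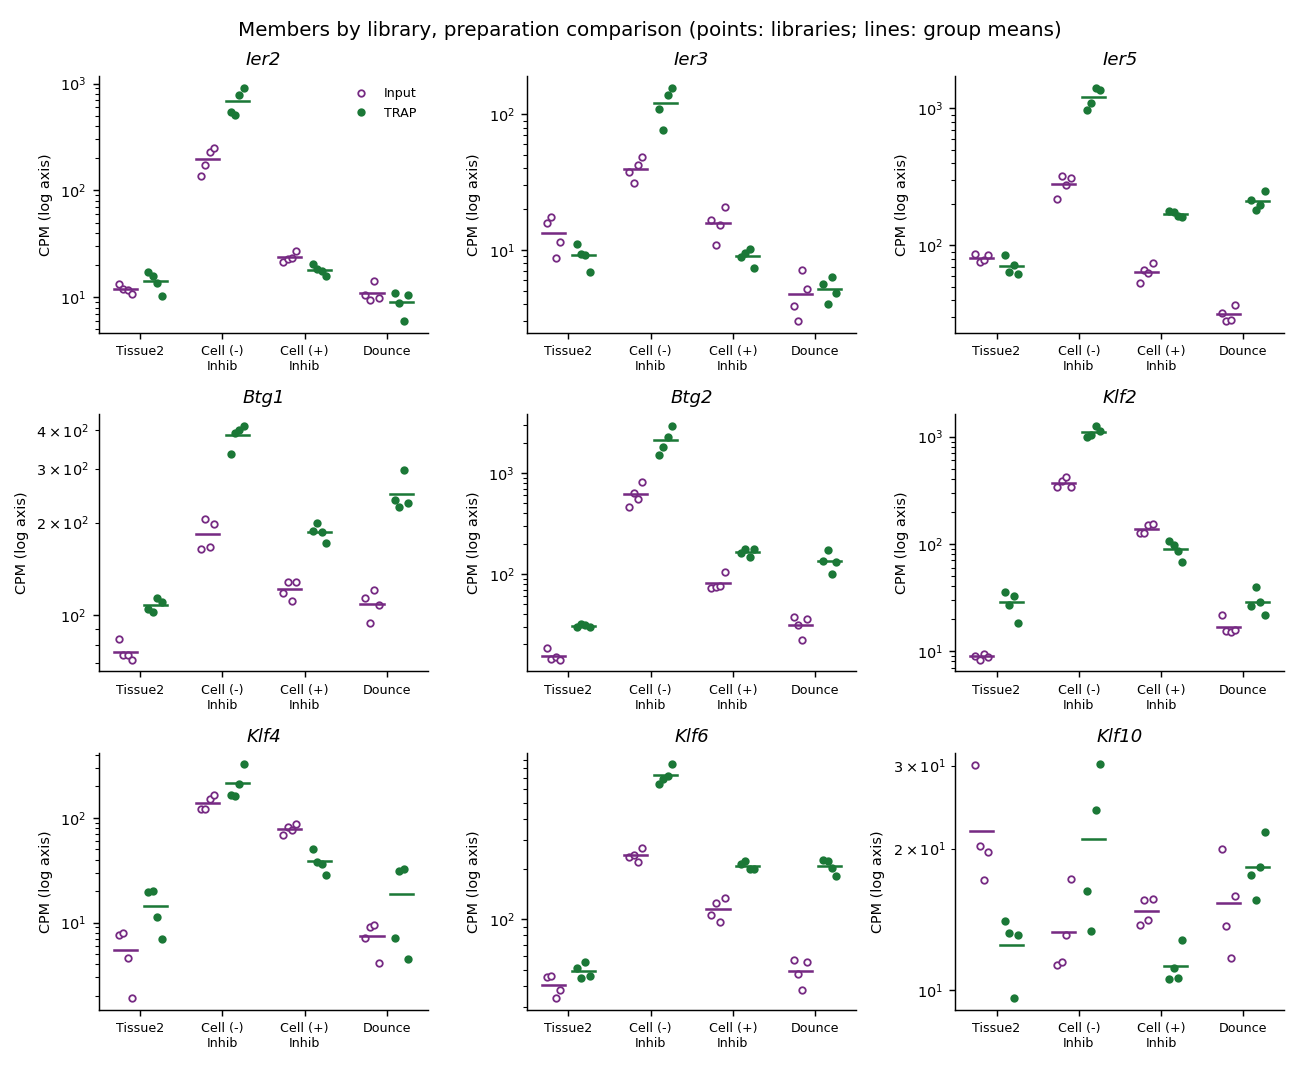
Level of each of the 9 members in every library of the cell preparation comparison, in CPM on a log axis, with open purple points for Input, filled green points for TRAP and lines for the group means (n = 4 libraries per group and fraction). In TRAP, the Cell (-) Inhib libraries lie above all others for 8 members, and for Klf10 they overlap with Dounce, while scaling to the microglial markers puts Btg1 and Klf10 below Tissue2 (-0.36 and -1.45 on the log2 scale). Of all genes tested, 22.3% were called higher in Cell (-) Inhib-TRAP than in Tissue2-TRAP. The share of all genes without overlap was not counted.

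The same contrast was made on separate libraries in the sort comparison, with Tissue-TRAP drawn from the mice of Tissue2-TRAP and therefore not independent of it. Again 8 of 9 members, all but Klf10, were higher in Cell-TRAP than in Tissue-TRAP, where 25.1% of all genes tested were called higher. The log2 differences were 5.92 ± 0.24 for Ier2, 6.12 ± 0.20 for Btg2, 5.16 ± 0.22 for Klf2 and 3.94 for both Ier3 (SE 0.35) and Ier5 (SE 0.18). They were 3.91 ± 0.40 for Klf4 and 3.79 ± 0.13 for Klf6, and 2.09 ± 0.11 for Btg1, which turned to -0.18 under microglial scaling. The median of the 9 was 3.94 and that of all genes tested was -0.01. For Klf10 the log2 difference of 0.88 ± 0.24 (edgeR adjusted p = 0.00193) passed 1 without Cell-TRAP replicate 4 (1.03) or without Tissue-TRAP replicate 1 (1.06), and was -1.40 under microglial scaling. Ier3 rested less evenly on its libraries: Cell-TRAP replicate 1 read 179 CPM against 81.9, 69.5 and 72.7 CPM in the others. That library had the highest value of its group for 7 of the 9 members, and its 7 border macrophage markers summed to 2348 CPM against a low of 914.9 CPM in the group; their part in the result was not tested.

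The inhibitors of transcription and translation were then compared within the enzymatic suspension. In TRAP, 8 members fell in Cell (+) Inhib against Cell (-) Inhib, again all but Klf10, in a comparison that called only 0.632% of all genes tested lower. The median log2 difference of the 9 members was -2.83 and that of all genes was -0.03, while the median of the 20 microglial markers was 0.06. Microglial scaling, the DESeq2 test, limma and the animal as a block each gave 8 calls as well. The falls ranged from 2.06-fold for Btg1 to 37.9-fold for Ier2. The endothelial markers had a median of 0.15 with 0 of 10 called by edgeR and 0 at an unadjusted p under 0.05. Of the 14723 genes tested, 1313 were at that level. Erythroid markers (3 of 5 tested, median -1.64) and oligodendrocyte markers (10 tested, median -0.80) had 0 called by edgeR and 3 and 6 at an unadjusted p under 0.05, and their part in the result was not tested.

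With inhibitors, Ier2 read 20.6, 18.4, 17.5 and 15.9 CPM, a fall of 37.9-fold (log2 difference -5.25 ± 0.21, edgeR adjusted p = 1.13e-11). Ier3 read 8.77, 9.48, 10.2 and 7.34 CPM, 13.5-fold lower (edgeR adjusted p = 1e-09). Both genes were thereby back among the Tissue2-TRAP libraries, whose ranges they overlapped. Ier5 read 179, 176, 164 and 161 CPM, 7.12-fold lower (edgeR adjusted p = 9.76e-11) but above every Tissue2-TRAP library. Btg2 read 162, 178, 148 and 175 CPM, 12.9-fold lower, and Btg1 read 188, 199.9, 187 and 172 CPM, 2.06-fold lower (edgeR adjusted p = 1.39e-06), close to the 2-fold limit.

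Of the Krüppel-like factors, Klf2 fell 12.4-fold, to 106, 96.6, 84.8 and 68.2 CPM. Klf4 fell 5.6-fold, to 50.5, 38.1, 36.5 and 28.6 CPM (log2 difference -2.49 ± 0.41, edgeR adjusted p = 0.00179). Klf6 fell 3.48-fold, to 214, 223, 199 and 199 CPM, still above every Tissue2-TRAP library. Klf10 read 10.6, 11.1, 10.6 and 12.8 CPM, a log2 difference of -0.89 ± 0.23 (edgeR adjusted p = 0.0587) that passed the limit, at -1.06, only without Cell (-) Inhib-TRAP replicate 2. The Cell (-) Inhib-TRAP libraries themselves differed by animal, with replicate 4 the highest for 7 of the 9 members.

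What remained with inhibitors was read against Tissue2-TRAP, which both Cell Inhib comparisons share. In Cell (+) Inhib-TRAP, 5 members, Ier5, Btg2, Klf2, Klf4 and Klf6, were called higher than in Tissue2-TRAP, with 21.6% of all genes called higher. The log2 differences were 2.43 for Btg2 and 2.08 for Klf6, which became 0.17 and -0.17 under microglial scaling. They were 1.65 for Klf2, 1.41 for Klf4 and 1.26 for Ier5, which became -0.60, -0.86 and -0.99 under that scaling. Not called were Btg1 at 0.80 (-1.46 under microglial scaling), Ier2 at 0.34 (-1.92), Ier3 at -0.03 and Klf10 at -0.15. The microglial markers differed by a median of 2.32 on the log2 scale, which only Btg2 exceeded. Under microglial scaling 4 members (Ier2, Ier3, Btg1 and Klf10) were called lower, where the median of all genes was itself -2.39. The share of all genes called under that scaling is not given.

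Dounce cells, freed in the cold without enzymes, held less of most members. In Dounce-TRAP, 7 members were lower than in Cell (-) Inhib-TRAP, all but Btg1 and Klf10, where 8.02% of all genes were called lower. The largest log2 difference was that of Ier2, -6.23 ± 0.24 (edgeR adjusted p = 3.07e-12), with 10.9, 8.78, 5.97 and 10.4 CPM. Klf2 differed by -5.24 and Ier3 by -4.58, with Ier3 down to 16 to 21 counts per library. Btg2 differed by -3.99, Klf4 by -3.52, Ier5 by -2.52, Klf6 by -1.80 and Btg1 by -0.64 (edgeR adjusted p = 2.82e-05, under 2-fold). Klf4 was the least even, with 7.2, 30.7, 32.8 and 4.47 CPM in the 4 Dounce-TRAP libraries, which overlapped both Tissue2-TRAP and Cell (+) Inhib-TRAP.

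Against Tissue2-TRAP, 4 members were called higher in Dounce-TRAP, Ier5, Btg1, Btg2 and Klf6, with 23.2% of all genes called higher. Btg2 read 133, 171, 99.2 and 132 CPM in Dounce-TRAP and Klf6 read 227, 223, 204 and 181 CPM, with log2 differences of 2.13 and 2.08 that became 0.10 and 0.07 under microglial scaling. Ier5 read 215, 181, 199 and 251.3 CPM and Btg1 read 237, 226, 296 and 232 CPM, with log2 differences of 1.58 and 1.20 that became -0.45 and -0.81 under that scaling. The microglial markers differed by a median of 2.21. The members at 0.04 (Klf2), 0.38 (Klf4) and 0.54 (Klf10) were not called, and under microglial scaling they were called lower at -1.97, -1.62 and -1.49. Ier2 (-0.64) and Ier3 (-0.85) were not called either, and under that scaling they were called lower at -2.68 and -2.87. The median of all genes was itself -2.08 under microglial scaling here.

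Dounce-TRAP and Cell (+) Inhib-TRAP differed in 2 members, Klf2 (log2 difference -1.61 ± 0.20) and Klf4 (-1.03 ± 0.44, edgeR adjusted p = 0.059), both lower in Dounce-TRAP where 7.63% of all genes were called lower. The call of Klf4 was lost without Cell (+) Inhib-TRAP replicate 1 (-0.87) and without Dounce-TRAP replicate 1 (-0.76) or replicate 4 (-0.71), and under microglial scaling (-0.759). Ier2, at -0.99, was called without Cell (+) Inhib-TRAP replicate 3 (-1.001) or 4 (-1.04) and without Dounce-TRAP replicate 1 (-1.09) or 4 (-1.05). Endothelial markers moved with Klf2 here: their sum over 10 genes was 931 to 1466 CPM in Cell (+) Inhib-TRAP and 56.8 to 84.46 CPM in Dounce-TRAP, and their part in the result was not tested.

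**Figure D2:**
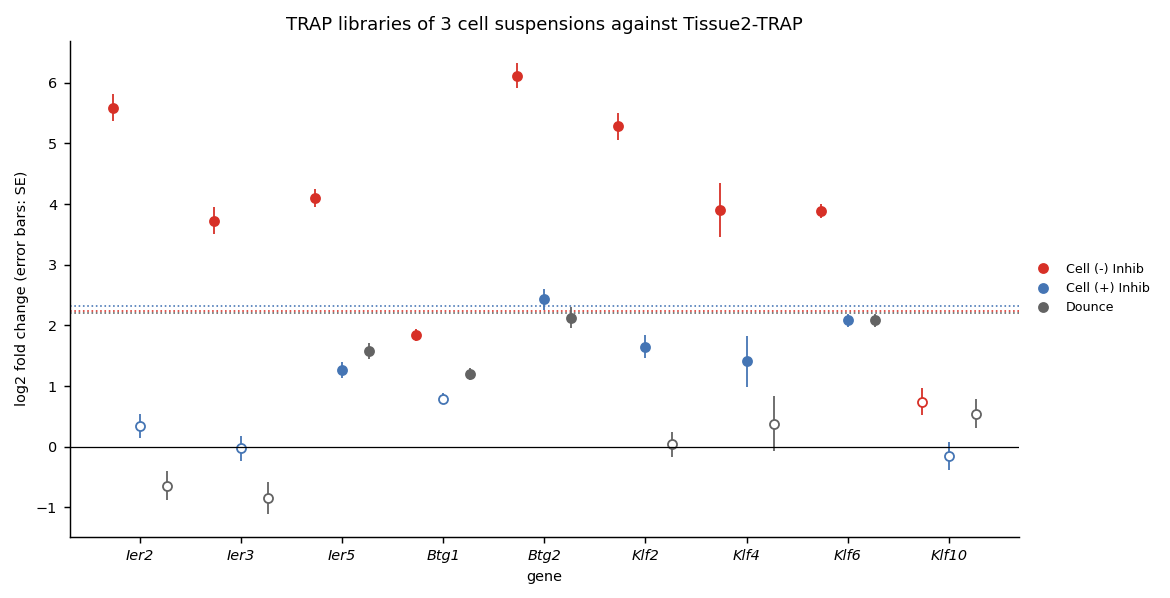
Log2 difference from Tissue2-TRAP, with its SE, of each member in Cell (-) Inhib-TRAP, Cell (+) Inhib-TRAP and Dounce-TRAP (n = 4 libraries per group), where filled points passed a false discovery rate under 0.1 and 2-fold and dotted lines mark the median of the 20 microglial markers in each comparison. In Cell (-) Inhib-TRAP all members but Btg1 and Klf10, which scaling to the markers turns negative, lie above the marker line of 2.23, whereas in the other comparisons no member but Btg2 in Cell (+) Inhib-TRAP, at 2.43, does so, and scaling to the markers leaves above 0 only Btg2 (0.17) in Cell (+) Inhib-TRAP and Btg2 (0.10) and Klf6 (0.07) in Dounce-TRAP.

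The orders of the 4 preparations in TRAP therefore differed between members. How many of all genes tested separate in the same ways was not counted. For Ier5 and Btg1 the ranges of all 4 groups were apart, with Cell (-) Inhib highest, then Dounce, then Cell (+) Inhib and Tissue2 lowest. For Btg2 and Klf6, Cell (-) Inhib was highest and Tissue2 lowest, and Cell (+) Inhib and Dounce between them overlapped. For Klf2, Cell (+) Inhib lay between Cell (-) Inhib and the overlapping pair of Dounce and Tissue2. For Ier2 and Klf4, only Cell (-) Inhib stood apart, and each neighbouring pair of the other 3 groups overlapped. For Ier3, Dounce was apart at the bottom, under the overlapping Tissue2 and Cell (+) Inhib.

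Levels per kilobase of merged exon give the scale on which genes can be set beside each other. On it the order of the members also differed between Tissue2-TRAP and Cell (-) Inhib-TRAP. These groups differ in mice and in coverage. Their neuronal markers summed to 6891 to 8067 CPM and 88.44 to 202.8 CPM. The part of these differences in the order was not tested. In Tissue2-TRAP the highest mean levels were those of Ier5 (21.6 CPM per kb), Btg1 (20.4) and Klf2 (15.3), followed by Klf6 and Btg2 (both 11.2). In Cell (-) Inhib-TRAP they were those of Btg2 (776 CPM per kb), Klf2 (598), Ier2 (452) and Ier5 (370), ahead of Klf6 (165), Ier3 (107), Btg1 (73.1) and Klf4 (70.6). Klf10 was lowest in both, at 2.99 and 5.02 CPM per kb.

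The sorted cells were then compared with the unsorted suspension. The sorted libraries came from other mice than Cell-TRAP and Cell-Input, so the set of mice and the sort cannot be told apart here. Between the mean of the 4 sorts and Cell-TRAP, edgeR called 0 of the 9 members, where 24.4% of all genes tested were called in either direction. At an unadjusted p under 0.05 by edgeR there were 3 members, Ier5 (log2 difference 0.44), Klf6 (0.21) and Klf10 (-0.44), all under 2-fold. Of the 14953 genes tested, 8735 were at that level. DESeq2 and limma also called 0 members. The other log2 differences ran from -0.49 for Klf4 to 0.20 for Klf2, with 0.01 for Ier2 and 0.12 for Btg2. Btg2 read 2223, 2001, 1565 and 1506 CPM in Cell-TRAP, 2260.3, 2234, 2376 and 1845 CPM in autoMACS-TRAP and 1761, 1854 and 1673 CPM in autoMACS to Tyto-TRAP. It read 1734, 1565, 2173, 1673 and 2549 CPM in Tyto-TRAP and 2812, 2245, 1764 and 1534 CPM in FACSAria-TRAP, so all 5 groups overlapped. In each of them Btg2 was far above the 27.6, 22.2, 28.7 and 26.6 CPM of Tissue-TRAP.

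The sorts were also compared with each other in an F test, in which 0 of 9 members were called in TRAP by edgeR (4.17% of all genes). At an unadjusted p under 0.05 by edgeR there was 1 member, where 5091 of the 14953 genes tested were at that level. That member was Btg1, whose fitted levels spanned 0.52 on the log2 scale (edgeR adjusted p = 0.00706), under the 2-fold limit. Its means were 425 CPM in autoMACS-TRAP, 362 CPM in FACSAria-TRAP, 329 CPM in Tyto-TRAP and 297 CPM in autoMACS to Tyto-TRAP. In Input, 0 members were called by edgeR (7.42% of all genes), with Btg1 again the only one at an unadjusted p under 0.05 and a span of 0.47. Of the 15750 genes tested in Input, 4258 were at that level. DESeq2 and limma also called 0 members across the sorts in either fraction. Of the mice, 3 gave both autoMACS and autoMACS to Tyto cells and 3 gave both FACSAria and Tyto cells, and with the animal as a block in these pairs edgeR again called 0 members in TRAP (2.2% of all genes) and in Input (0.896%). Within the pairs, autoMACS to Tyto-TRAP was below autoMACS-TRAP in 3 of 3 mice for Ier2 (log2 difference -0.37 ± 0.16), Ier3 (-0.38 ± 0.17), Btg1 (-0.47 ± 0.08), Btg2 (-0.24 ± 0.15) and Klf10 (-0.30 ± 0.13). Of these, Btg1 passed the false discovery rate (edgeR adjusted p = 0.00202) and stayed under 2-fold. Klf6 went the other way, higher in autoMACS to Tyto-TRAP in 3 of 3 mice (0.07 ± 0.09). Ier5, Klf2 and Klf4 were higher there in 1 of 3 (-0.003, 0.01 and 0.09). At an unadjusted p under 0.05 by edgeR were Ier2, Ier3, Btg1 and Klf10 in this contrast, Ier2, Btg1 and Klf10 in the same contrast of Input, and Klf10 in FACSAria-TRAP against Tyto-TRAP. How many of all genes reached that level in these paired contrasts was not counted.

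Klf2 is an endothelial gene as well as a microglial one, and its level is given beside the endothelial markers. Klf2 read 847, 958, 866 and 691 CPM in Cell-TRAP, where the 10 endothelial markers summed to 1031 to 1119 CPM. In the sorted TRAP libraries Klf2 ran from 661 to 1276 CPM while the endothelial markers summed to 72 to 163.9 CPM. The log2 difference of Klf2 between the sorts and Cell-TRAP was 0.20 ± 0.15 (-0.11 under microglial scaling).

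**Figure D3:**
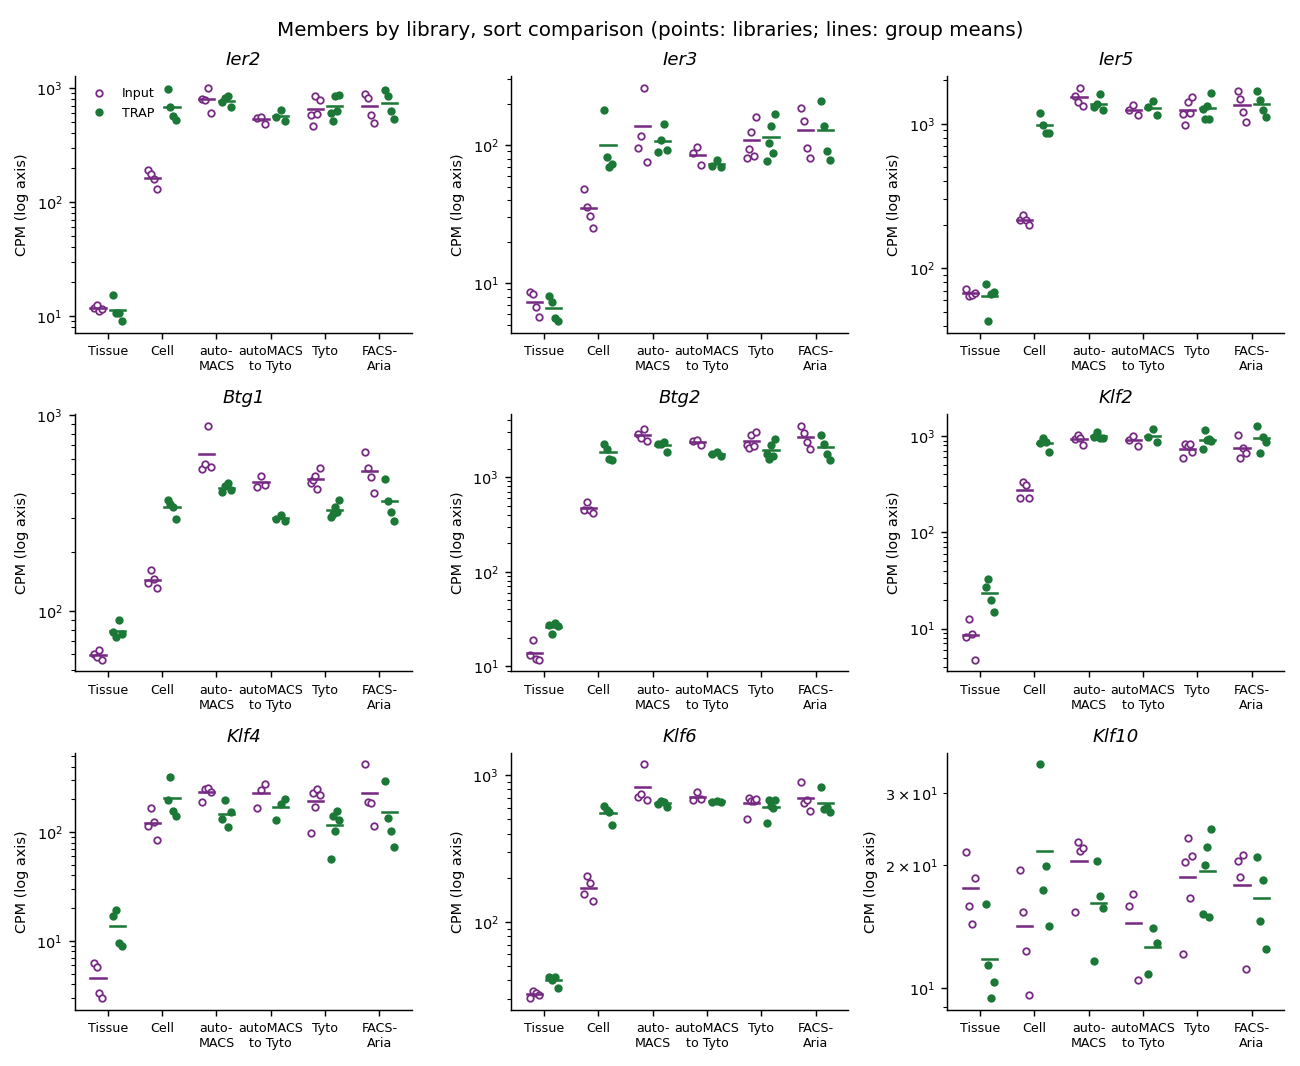
Level of each of the 9 members in every library of the sort comparison, in CPM on a log axis, with open purple points for Input, filled green points for TRAP and lines for the group means (n = 3 to 5 libraries per group and fraction). In TRAP the Cell libraries and all 4 sorts lie together, above Tissue except for Klf10 (and for Btg1 at -0.18 when Cell and Tissue were scaled to the microglial markers), and in Input the sorts lie above Cell for 7 members on the CPM scale, an order that turned for 6 of them under that scaling.

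Input libraries answer the same questions for all RNA of the preparation. In Cell-Input, 8 members were higher than in Tissue-Input on the CPM scale, all but Klf10, with 28.5% of all genes called higher, and Ier2, Ier3, Ier5, Btg1 and Klf6 turned negative under microglial scaling (-0.35, -1.89, -2.50, -2.92 and -1.78). Btg2 (0.92), Klf2 (0.85) and Klf4 (0.58) lost their calls under it, so that none of the 8 was called higher. The median of all genes tested was itself -4.02 under microglial scaling here. In Tissue-Input the microglial markers summed to 533 to 792.3 CPM and the neuronal markers to 6996 to 7309 CPM. In Cell (-) Inhib-Input against Tissue2-Input these 8 members were higher again, with 25.6% of all genes called higher. The same 5 turned negative under microglial scaling, where the median of all genes was -4.31. Klf2 differed by 5.38 on the log2 scale in the latter comparison and was still called under microglial scaling, at 1.04. Btg2 differed by 5.31 and Klf4 by 4.65, values of 0.93 and 0.31 under that scaling. Ier2 differed by 4.05 (-0.30 under microglial scaling), Klf6 by 2.58 (-1.79), Ier5 by 1.78 (-2.60), Ier3 by 1.58 (-2.76) and Btg1 by 1.28 (-3.10). The microglial markers themselves had a median log2 difference of 4.38. Klf2 in Cell (-) Inhib-Input read 341, 389, 419 and 338 CPM against 9.04, 8.31, 9.37 and 8.87 CPM in Tissue2-Input, and the endothelial markers rose beside it from 98.52 to 114 CPM in Tissue2-Input to 1963 to 2463 CPM; their part in the result was not tested.

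With inhibitors, 6 members fell in Input, where 0.311% of all genes were called lower. Ier2 fell from 137, 175, 228 and 249.7 CPM to 21.4, 22.5, 23.4 and 27 CPM, a log2 difference of -3.06 ± 0.17 (edgeR adjusted p = 3.7e-10). Btg2 fell by 2.92, Ier5 by 2.12, Klf2 by 1.43, Ier3 by 1.33 and Klf6 by 1.07 on the log2 scale, and the call of Klf6 was lost without Cell (+) Inhib-Input replicate 3 (-0.99). Btg1 (-0.60), Klf4 (-0.83, edgeR adjusted p = 0.268) and Klf10 (0.15) were not called. Klf4 still read 69.3, 81.2, 76.7 and 86.8 CPM with inhibitors, against 7.64, 7.95, 4.63 and 1.91 CPM in Tissue2-Input.

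Cell (+) Inhib-Input held more Btg2, Klf2, Klf4 and Klf6 than Tissue2-Input, 4 members, where 25.5% of all genes were called higher. The log2 differences were 3.96 for Klf2 and 3.82 for Klf4, against 2.39 for Btg2 and 1.51 for Klf6, and all 4 were negative under microglial scaling (-0.54, -0.67, -2.13 and -2.99). The median of all genes was -4.46 under that scaling. Ier2, at 0.98, was called without Cell (+) Inhib-Input replicate 1 (1.03) or 2 (1.004) or without Tissue2-Input replicate 1 (1.05), and read -3.52 under microglial scaling. In Dounce-Input against Tissue2-Input, 1 member (Btg2, 1.03) was higher and 2 (Ier3, -1.54, and Ier5, -1.38) were lower, with 50.1% of all genes called in either direction. The call of Btg2 rested on single libraries and was lost without Tissue2-Input replicate 2 (0.99) or 4 (0.99) or without Dounce-Input replicate 1 (0.93) or 4 (0.97). Its value was -1.61 under microglial scaling, where the median of all genes was -2.50. Dounce-Input also held erythroid markers at a sum of 10860 to 14660 CPM, against 138.1 to 242.3 CPM in Tissue2-Input, and neutrophil and monocyte markers at 282.1 to 1814 CPM, against 1.79 to 3.734 CPM, and their part in these values was not tested. In Dounce-Input against Cell (-) Inhib-Input, 7 members were lower, all but Btg1 (-0.75) and Klf10 (0.21), with 28.1% of all genes called lower. Under microglial scaling Btg1 and Klf10 were called higher, at 1.04 and 1.94, and the call of Klf6 was lost (-0.56). The median of all genes was 1.70 under that scaling. The log2 differences of the 7 ran from -2.29 for Klf6 to -4.45 for Klf2, beside a median of -1.79 for the microglial markers.

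The Inputs of sorted cells were above those of the unsorted suspension on the CPM scale, again from other mice. In the mean of the 4 sorts, 7 members were higher than in Cell-Input on the CPM scale, with 17.1% of all genes called higher, and under microglial scaling only Ier5 stayed above 0, at 0.05. The log2 differences were 2.63 for Ier5, 2.45 for Btg2 (-0.13 under microglial scaling), 2.07 for Klf6 (-0.48), 2.02 for Ier2 (-0.57), 1.83 for Btg1 (-0.73), 1.70 for Ier3 (-0.88) and 1.60 for Klf2 (-0.97). The microglial markers summed to 9074 to 11840 CPM in Cell-Input and to 40280 to 75560 CPM in the sorted Inputs. Under microglial scaling the median of all genes was -2.67. Klf4, at 0.84 and -1.72 under microglial scaling, was called higher without Cell-Input replicate 2 (1.02), and Klf10 stood at 0.32 and -2.29.

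Pull-down and Input of the same animals were then compared, to see how each member stood in the RNA of tagged ribosomes against all RNA. The median log2 difference of the 20 microglial markers between TRAP and Input was 4.61 in Tissue, 4.80 in Tissue2, 4.24 in Dounce, 2.79 in Cell, 2.34 in Cell (-) Inhib, 2.25 in Cell (+) Inhib and 0.22 in the sorts. In Tissue, 3 members, Btg2 (log2 difference 1.12), Klf2 (1.66) and Klf4 (1.78), were higher in TRAP than in Input, with 9.23% of all genes called higher, and Btg2 fell under the limit without replicate 3 (0.94) or 4 (0.98). In Tissue2 the same 3 genes were higher (8.21% of all genes), at 1.20, 1.89 and 1.60. Ier2 (0.16 and 0.48), Ier3 (0.04 and -0.32) and Ier5 (0.14 and 0.01) did not pass in either. Tissue2 libraries came from the mice of Tissue, so these are repeat libraries and not a second set of animals.

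In Cell, 8 members were higher in TRAP than in Input, all but Klf10 (0.89), with 16.8% of all genes called higher. The log2 differences were 2.46 for Ier5, 2.35 for Ier2, 2.25 for Btg2, 1.98 for Klf6, 1.90 for Klf2, 1.81 for Ier3 and 1.51 for Btg1. Klf4, at 1.02, fell under the limit without replicate 1 (0.998) or 2 (0.90) and with the animal as a block (0.99). It fell further under DESeq2, to 0.61 with the size factors and 0.62 with the test. Klf10 passed the limit without replicate 2 (1.02). In Cell (-) Inhib, 7 members were higher, all but Klf4 (0.66) and Klf10 (0.69), with 10.6% of all genes called higher. In the mean of the 4 sorts 0 members were called by edgeR, where 18.9% of all genes were called in either direction, and DESeq2 also called 0. At an unadjusted p under 0.05 by edgeR there were 4 members, Btg1 (-0.47), Btg2 (-0.28), Klf2 (0.30) and Klf4 (-0.51), all under 2-fold. Of the 15825 genes tested, 9895 were at that level.

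In Dounce, 6 members were higher in TRAP than in Input, all but Ier2 (0.12), Ier3 (0.52) and Klf10 (0.62), with 20.8% of all genes called higher. Ier5 had the largest log2 difference there, 3.12 ± 0.15, followed by Btg2 (2.46), Klf6 (2.45), Klf4 (1.70) and Btg1 (1.56). Klf2, at 1.15, fell under the limit without replicate 2 (0.89) or 3 (0.80) and under both DESeq2 settings (0.92). In Cell (+) Inhib, 2 members were higher in TRAP (Ier5, 1.42, and Btg2, 1.04) and 1 was lower (Klf4, -1.01), with 45.6% of all genes called in either direction. Btg2 fell under the limit without replicate 2 (0.97), and Klf4 without replicate 2 (-0.99), 3 (-0.999) or 4 (-0.85) and under both DESeq2 settings (-0.89). With the animal as a block there were 3 calls as well, Ier5, Btg2 and Klf6 (1.18), with Klf4 at -0.73.

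**Figure D4:**
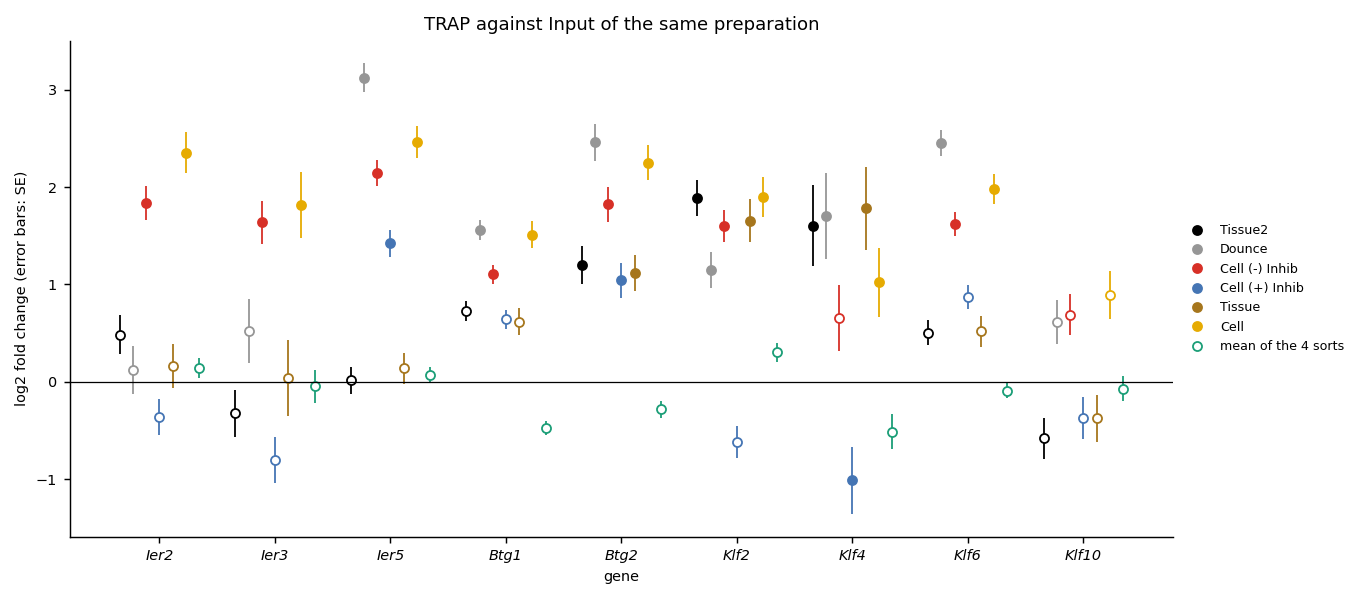
Log2 difference between TRAP and Input of the same preparation, with its SE, for each member in the Tissue, Cell, sorted, Tissue2, Dounce, Cell (-) Inhib and Cell (+) Inhib preparations, where filled points passed a false discovery rate under 0.1 and 2-fold. The sorted cells lie near 0 for all members (-0.51 to 0.30), whereas Cell and Cell (-) Inhib lie between 1.10 and 2.46 for all but Klf4 and Klf10.

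Whether the effect of dissociation differed between fractions was tested as an interaction. The difference between Cell and Tissue was greater in TRAP than in Input for 6 members, Ier2, Ier3, Ier5, Btg2, Klf6 and Klf10, with 5.74% of all genes called higher. The interaction was 2.32 ± 0.22 for Ier5 and 2.19 ± 0.31 for Ier2 (edgeR adjusted p = 3.09e-11 and 1.13e-07). It was 1.77 for Ier3 (edgeR adjusted p = 0.00338), 1.46 for Klf6, 1.27 for Klf10 and 1.13 for Btg2. For Btg2 it was 0.99 without Cell replicate 1 and 0.68 without Tissue replicate 2, and for Klf10 it was 0.98 without Tissue replicate 4. The microglial markers had a median interaction of -1.77, of the opposite sign to these members. Klf2 (0.24 ± 0.30) and Klf4 (-0.76 ± 0.55) did not pass, and their Input levels stood beside endothelial markers of 1390 to 2622 CPM in Cell-Input against 71.4 to 89.56 CPM in Tissue-Input, whose part in the result was not tested.

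The effect of the inhibitors was more negative in TRAP than in Input for 3 members, Ier2 (-2.20 ± 0.26), Ier3 (-2.44 ± 0.33) and Klf2 (-2.22 ± 0.23), with 0.145% of all genes called lower. In this fit the median of the 9 members was -1.06, and Klf4 and Klf10 were past 2-fold but missed the false discovery rate. With the animal as a block there were 5, with Klf4 (-1.64) and Klf10 (-1.01) added. The DESeq2 test also called Klf10 (-1.06). The interaction was -0.46 for Btg1, -0.72 for Ier5, -0.74 for Klf6 and -0.78 for Btg2, none of which was called.

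The wider gene families and partners were read from fixed lists in Cell (-) Inhib-TRAP against Tissue2-TRAP. Of 18 other genes of the Ier, Btg and Klf families, 13 were tested, 3 were higher and 4 lower, shares close to the 22.3% and 30.8% of all genes called higher and lower, and their median log2 difference was -0.49. The counts of the other lists stand against the same shares. Those higher were Klf3 (3.02), Tob2, an antiproliferative relative of the Btg genes (2.57), and Klf11 (1.28). Those lower were Klf9 (-2.58), a glucocorticoid-responsive factor, Klf5 (-2.43), Ier5l (-2.29) and Klf15 (-1.24). Of 13 genes listed for CCR4-NOT, the deadenylase that the BTG proteins bind, 10 were tested and 5 were higher, Cnot6l (2.88), Cnot6 (1.59), Cnot1 (1.58), Cnot2 (1.42) and Cnot8 (1.09). Of 8 genes of the ERK5 to MEF2 route, 7 were tested and 3 were higher, Mef2a (2.96) and the kinases Map3k3 (2.08) and Map3k2 (2.05). Of 14 genes for SRF, CREB and their cofactors, 12 were tested, 2 were higher (Elk3, 2.08, and Atf1, 1.31) and 3 lower (Mkl2, -2.52, Crtc1, -2.38, and Elk1, -1.93). The lists were not refitted under microglial scaling, whose shift of the median of all genes (-2.20) is larger in size than the positive values of all but Klf3, Tob2, Cnot6l and Mef2a. With inhibitors, edgeR, the tool run on these lists, called 0 genes of each of the 4 in TRAP, with 2 other family genes, 1 CCR4-NOT gene, 0 ERK5 to MEF2 genes and 0 SRF and CREB genes at an unadjusted p under 0.05. Of the 14723 genes tested there, 1313 were at that level.

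Across the 16 TRAP libraries of the preparation comparison, the nearest gene outside the members was named for each member but Btg1 by the Pearson correlation of log2(CPM + 1), as a description of levels that all move with the 4 groups. Ier2 was nearest to Jun (r = 0.9942) and Ier3 to Fos (0.9864), subunits of the AP-1 factor. Btg2 was nearest to Zfp36 (0.9921), whose protein destabilises mRNAs with AU-rich elements, Klf6 to Rhob (0.9944) and Klf2 to Spry1 (0.9723), an inhibitor of receptor tyrosine kinase signalling. Ier5 was nearest to H3f3b (0.9814), Klf4 to the chemokine gene Ccl3 (0.9396) and Klf10 to Ifrd1 (0.9148). Within groups, after the group means were removed, the 36 pairs of members correlated positively in all 36 cases in TRAP of both comparisons. The median r was 0.702 over the 8 libraries of Cell (-) and Cell (+) Inhib and 0.669 over the 20 libraries of Cell and the 4 sorts. No such values were computed for other pairs of genes, so these do not set the members apart.

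Some libraries were high for many members at once, and how many other genes were highest in the same libraries was not counted. In FACSAria-TRAP, replicate 1 had the highest value of its group for 9 of 9 members, and in autoMACS to Tyto, replicate 2 had it for 8 in both fractions. In autoMACS-Input, replicate 3 had it for 7, and its microglial markers summed to 40280 CPM, the lowest of the sorted Inputs. Its level of Ier3 was 262 CPM against 95, 116 and 76.1 CPM in the other 3 libraries, and the part of the differing purity in this was not tested.

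All 9 genes are protein-coding in the annotation deposited with the counts (mm10), from which the locations below are taken. In the GENCODE annotation no other gene overlaps any of them. Btg2 and Ier5 lie on chromosome 1 (chr1:134074865-134079155 and chr1:155096367-155099636, both minus strand), and Klf2 and Ier2 on chromosome 8 (chr8:72319062-72321654, plus strand, and chr8:84661331-84662852, minus strand). Klf4 lies at chr4:55527137-55532475 (minus), Btg1 at chr10:96617001-96622811 (plus) and Klf6 at chr13:5861489-5870393 (plus). Klf10 lies at chr15:38294413-38300707 (minus) and Ier3 at chr17:35821713-35822911 (plus). Merged over GENCODE transcripts, as for the levels per kilobase, the exon blocks number 1 in Ier2 and Ier5, 2 in Ier3 and Btg2, 3 in Btg1 and Klf2, 5 in Klf4 and Klf6 and 10 in Klf10.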

How the data were processed

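RNA-seq libraries (48 in the sort comparison, 32 in the preparation comparison) were made by the authors from poly(A) RNA with a strand-keeping kit, sequenced as paired reads, aligned to mm10 and quantified in Strand NGS with duplicates removed. The deposited expected counts per gene (estimated counts, of which 33.2% and 20.8% were whole numbers in the sort and preparation tables) were rounded to whole numbers here. The deposited log2 values, which the authors normalized with DESeq2 and baselined, were used in the limma alternative only. Both tables were normalized separately, and every test stayed within a table. The study describes lower RNA integrity for Dounce, and coverage shifted further to the 3′ end in Tissue and Dounce than in both Cell Inhib groups. So coverage differs between the sides wherever a Cell Inhib group is compared with Tissue2 or with Dounce. RNA integrity also differs between the sides wherever Dounce is compared with another preparation, though the study's text gives values of it for Input only.

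Genes with more than 5 counts in every library of at least 1 group were fitted with edgeR 4.0.16 (quasi-likelihood, TMM, R 4.3.3), over all groups of a fraction together. TRAP against Input and the interactions came from fits of both fractions. A call needed a Benjamini-Hochberg false discovery rate under 0.1 over all genes tested and more than 2-fold. SE was taken as the log2 difference divided by the square root of F. CPM used TMM-scaled library sizes. Depth covers counting error only, and replicates are separate animals per the labels. Alternatives were DESeq2 1.42.0 (size factors and test), limma 3.58.1, microglial scaling, no filter, only the groups compared, an earlier deposited table, the animal as a block, and each library left out. Descriptions used Python 3.11.15, pandas 2.3.3 and numpy 2.4.6.

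Animal numbers in the titles pair the libraries: Input with TRAP, Cell (-) with Cell (+) Inhib, Tissue with Cell, and some sorts (autoMACS with autoMACS to Tyto, FACSAria with Tyto; this block was chosen after seeing the data). Deviations of paired libraries from their group means correlated above 0 in 50 of 52 pairs (-0.123 to 0.518). Replicates differed beyond sampling noise (smallest chi-square per gene 3.538). All 9 members were named throughout, and from the other gene lists those called in Cell (-) Inhib-TRAP against Tissue2-TRAP or with inhibitors. Members and lists were chosen with earlier results of these data known, and Btg2, Ier5 and Ier3 also stand on a list that the study chose on these samples, so their direction is not independent evidence. Promoters were read from RefSeq (GRCm38.p6). The gene nearest to Btg1 is not reported here.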

Additional observations from a re-analysis of the deposited data

Results flagged for a closer look

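Within groups of 4 or 5 libraries, the highest or lowest value of a member was far from the others in 9 of 162 combinations of gene and group, a rate close to the 1 in 20 that chance gives. In TRAP these were Ier3 in Cell-TRAP replicate 1 (179 CPM), Klf6 in FACSAria-TRAP replicate 1 (826 CPM) and Btg1 in Dounce-TRAP replicate 3 (296 CPM). In Input they were Btg1 and Klf6 in autoMACS-Input replicate 3 (880.4 and 1184 CPM), the library with the lowest sum of microglial markers of the sorted Inputs (40280 CPM), Klf6 in Tyto-Input replicate 1 (502 CPM, a low value) and Klf10 in autoMACS-Input replicate 1 (15.4 CPM, also low). The other Input values were Btg2 in Cell (+) Inhib-Input replicate 4 (104 CPM) and Klf2 in Dounce-Input replicate 1 (21.5 CPM).

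The difference between Cell and Tissue was larger in TRAP than in Input by the tested interaction for Ier2 (2.19), Ier3 (1.77), Ier5 (2.32), Btg2 (1.13), Klf6 (1.46) and Klf10 (1.27), on the log2 scale. Klf10, which passed 2-fold in neither fraction, differed between Cell and Tissue by 0.88 in TRAP and -0.31 in Input. The effect of the inhibitors was more negative in TRAP than in Input for Ier2 (-2.20), Ier3 (-2.44) and Klf2 (-2.22).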

How the results depend on the processing

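The number of members called stayed within 1.5 times of the reported one in 26 of 26 comparisons without the filter, 6 of 6 in the earlier table, and all but 3 of 26 with DESeq2 (size factors or test), 1 of 17 with limma, 2 of 17 with only the groups compared and 2 of 13 with the animal as a block. An added block over sorts of the same mice, chosen after seeing the data, also gave 0 calls in both fractions. The setting that turned most values was microglial scaling. By construction it takes the shift in the summed counts of the 20 markers out of each comparison. It moved 6 and reversed 5 of 17 counts, and shifted the median of all genes by -4.48 to 1.76 on the log2 scale; DESeq2 size factors shifted it by -0.41 to 0.13.

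Under microglial scaling, 8 members were called in Cell-TRAP against Tissue-TRAP and 8 in Cell (-) Inhib-TRAP against Tissue2-TRAP (7 higher, 1 lower, each with Btg1 lost and Klf10 gained), with Btg1 at -0.18 and -0.36 and Klf10 at -1.40 and -1.45. In Cell (+) Inhib-TRAP against Tissue2-TRAP, 4 were called, all lower (Ier2, Ier3, Btg1 and Klf10), with Ier2 at -1.92 and Btg1 at -1.46, and Ier5 turned to -0.99, Klf2 to -0.60, Klf4 to -0.86 and Klf6 to -0.17. In Dounce-TRAP against Tissue2-TRAP, 5 were called, all lower (Ier2 -2.68, Ier3 -2.87, Klf2 -1.97, Klf4 -1.62 and Klf10 -1.49), Ier5 turned to -0.45 and Btg1 to -0.81, and against Cell (+) Inhib-TRAP 1 was called. In Cell-Input against Tissue-Input, 5 were called, all lower (Ier3 -1.89, Ier5 -2.50, Btg1 -2.92, Klf6 -1.78 and Klf10 -4.48), and Ier2 turned to -0.35. In Cell (-) Inhib-Input against Tissue2-Input, 6 were called (Klf2 higher and Ier3, Ier5, Btg1, Klf6 and Klf10 lower), with Ier3 at -2.76, Ier5 -2.60, Btg1 -3.10 and Klf6 -1.79, and Ier2 turned to -0.30. In Cell (+) Inhib-Input against Tissue2-Input, 7 were called, all lower (Ier2 -3.52, Ier3 -4.27, Ier5 -4.85, Btg1 -3.82, Btg2 -2.13, Klf6 -2.99 and Klf10 -5.06), and Klf2 turned to -0.54 and Klf4 to -0.67. In Dounce-Input against Tissue2-Input, 9 were called, all lower, among them Btg1 at -2.06, Btg2 -1.61, Klf2 -1.69, Klf4 -2.14 and Klf6 -2.34, and against Cell (-) Inhib-Input 8 were called, all but Klf6 (-0.56), with Btg1 at 1.04 and Klf10 at 1.94 higher. In the sorts against Cell-Input, 2 were called, both lower (Klf4 -1.72 and Klf10 -2.29), and Ier2 turned to -0.57, Ier3 to -0.88, Btg1 to -0.73, Btg2 to -0.13, Klf2 to -0.97 and Klf6 to -0.48. The share of all genes called under microglial scaling is not given beside these counts. In TRAP against tissue the median of all genes under it was -2.29 for Cell, -2.32 for Cell (-) Inhib, -2.39 for Cell (+) Inhib and -2.08 for Dounce. In Input against tissue it was -4.02, -4.31, -4.46 and -2.50 in the same order.

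In Dounce-TRAP against Cell (+) Inhib-TRAP, 1 member was called with only the groups compared (Klf4, at -1.001, missed the false discovery rate), and Ier2 was called by DESeq2 (-1.02) and limma (-1.11). In Dounce-Input against Tissue2-Input, 2 were called under DESeq2 size factors, the DESeq2 test, limma and only the groups compared. In the interaction of fraction with Cell against Tissue, 5 were called under both DESeq2 settings (with the DESeq2 test, Btg2 at 0.81 and Klf10 at 0.95 lost and Klf4 at -1.09 gained). In TRAP against Input of Cell (+) Inhib, 2 were called under both DESeq2 settings and 3 with the replicate block, and in the interaction with inhibitors 5 were called with the replicate block. The block also ended the call of Klf4 in TRAP against Input of Cell (0.99) and changed no other call of a member. Leaving out 1 library at a time gave 1 to 3 calls in Dounce-TRAP against Cell (+) Inhib-TRAP, 2 to 3 in Dounce-Input against Tissue2-Input and 1 to 3 in TRAP against Input of Cell (+) Inhib. The causes of these changes were not tested. Depth limits Ier2, Ier3 and Klf4 in Dounce-TRAP, where single libraries held as few as 16, 16 and 15 counts.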
